A study of Homo sapiens with 2 samples.

Results

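Genes of myelin and of the Schwann cell, the glial cell that wraps peripheral nerve fibres, were compared between the human melanoma cell lines IGR39 and IGR37. The set was given as 5 genes, namely MBP, GPM6B, GPM6A, PMP22 and PMP2, and its members were all probe sets on the array whose annotated symbol is one of these. The annotation used here gave 18 such probe sets for 4 genes, out of 54675 probe sets and 19775 named genes. No probe set had PMP22 as its only symbol, and probe sets with several symbols were not used, so PMP22 has no value. The genes were chosen by their measured values on these arrays, with the large differences of MBP and GPM6B between the lines already known, so their levels are a description and support nothing further. IGR39 came from a primary, achromic cutaneous tumour and IGR37 from a lymph node metastasis. Both lines were cultured in DMEM with serum and antibiotics, no treatment or time point is recorded for either, and total RNA of each was hybridised to 1 Affymetrix Human Genome U133 Plus 2.0 array. Each group is thus 1 established line, with no second line, clone or culture of its kind measured here. With 1 array per line the comparison is unreplicated, and it therefore carries neither a test nor a standard error.

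MBP encodes myelin basic protein, which holds the cytoplasmic faces of the myelin membrane together. The MBP gene also has an upstream start, and the longer transcripts made from it, known as Golli transcripts, occur outside myelinating glia. GPM6A and GPM6B encode closely related multipass membrane glycoproteins of neurons and glia. PMP22 and PMP2 encode proteins of compact peripheral myelin, the latter a fatty acid-binding protein. Schwann cells and melanocytes both arise from the neural crest and share the transcription factor SOX10, and melanomas are known to transcribe several glial genes.

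MBP and GPM6B were the members that differed between the lines, and the windows in front of their annotated starts are shown for that reason. They are the 250 bases upstream of 2 starts per gene in RefSeq on GRCh38.p14. All are written along the minus strand, on which both genes lie. MBP spans chr18:76978833-77133708, and its windows are chr18:77132784-77133033 (upstream start) and chr18:77017056-77017305 (downstream start). These starts lie 115728 bases apart, and both windows fall inside the annotated gene. The gene reaches further upstream, to base 77133708, and no window was available there. The upstream start is therefore only the more upstream of those shown. GPM6B spans chrX:13770939-13938638. Its windows are chrX:13938639-13938888, just outside the gene, and chrX:13817094-13817343, inside it. Capitals mark matches, on either strand, to 4 motifs of 6 bases each, namely ACAAAG and ACAATG, which are cores bound by SOX factors, and CATGTG and CACGTG, which are E-boxes of the kind bound by MITF.
MBP upstream start: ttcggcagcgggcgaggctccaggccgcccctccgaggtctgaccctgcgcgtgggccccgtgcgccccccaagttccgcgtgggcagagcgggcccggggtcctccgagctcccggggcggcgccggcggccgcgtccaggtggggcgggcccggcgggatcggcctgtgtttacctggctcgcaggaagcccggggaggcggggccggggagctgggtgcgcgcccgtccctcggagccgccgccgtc
MBP downstream start: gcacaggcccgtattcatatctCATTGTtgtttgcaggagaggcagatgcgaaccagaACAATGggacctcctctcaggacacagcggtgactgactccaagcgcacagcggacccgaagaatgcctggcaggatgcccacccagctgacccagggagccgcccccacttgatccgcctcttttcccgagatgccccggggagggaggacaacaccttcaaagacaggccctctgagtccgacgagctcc
GPM6B upstream start: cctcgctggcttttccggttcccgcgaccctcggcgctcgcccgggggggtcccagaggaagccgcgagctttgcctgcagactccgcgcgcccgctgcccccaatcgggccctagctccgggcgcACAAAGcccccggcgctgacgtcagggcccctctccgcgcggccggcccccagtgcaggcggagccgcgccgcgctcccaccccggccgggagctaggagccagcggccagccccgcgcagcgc
GPM6B downstream start: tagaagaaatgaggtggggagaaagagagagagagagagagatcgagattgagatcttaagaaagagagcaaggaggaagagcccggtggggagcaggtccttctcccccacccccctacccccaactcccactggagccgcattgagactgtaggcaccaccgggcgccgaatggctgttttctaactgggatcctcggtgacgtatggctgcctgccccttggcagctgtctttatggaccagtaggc

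The downstream MBP window held ACAATG at bases 192 to 187 before the start, and on the opposite strand, where it reads as CATTGT, at bases 228 to 223. The upstream GPM6B window held ACAAAG at bases 124 to 119 before the start. The other two windows held none of the 4 motifs, and no matches overlapped. A match of this kind is common. ACAAAG occurred in 13.7% of all 35116 windows of this length in the table, ACAATG in 9.29% and at least 1 of both in 21.2%. CATGTG occurred in 9.42% of the windows and CACGTG in 6.34%. Of the 4 windows of GPM6A, which was dim in both lines, the first held CACGTG and the fourth CATGTG. PMP22 had 3 windows, and the first held ACAAAG. These matches describe the letters only. The windows differed in base composition, with 80.4% G or C before the upstream MBP start and 60.4% before the downstream one, against 78.4% and 56.8% for GPM6B.

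The deposited values are log2 levels made with RMA, in which a difference of 1 is 2-fold. Differences are given as IGR37 minus IGR39, so that a positive value means a brighter signal in IGR37. As a yardstick for the probes, the differences of 1 gene's probe sets had a pooled SD of 0.40 across 3178 genes with several probe sets at or above log2 6. The spread between cultures is not known.

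MBP was far brighter in IGR37. Its brightest probe set, 209072_at, stood at 4.41 in IGR39 and 10.56 in IGR37, which is 6.14 higher, or 70.7-fold. On the IGR39 array this value lay at the 55.4th percentile of all probe sets, and on the IGR37 array at the 98.5th. This probe set thus went from the middle of the array to its top. The other MBP probe sets that reached log2 6 lay at the 58.9th to 74.8th percentile in IGR39. In IGR37 they lay at the 75.8th to 95.5th.

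The probe sets of MBP did not give 1 size of difference. Probe set 207323_s_at read 5.43 in IGR39 and 9.05 in IGR37, 3.62 higher. For 210136_at the levels were 5.54 and 8.60, and the difference 3.06. Probe set 1554544_a_at differed by 2.70, from 5.35 to 8.06. All of these were higher in IGR37.

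Smaller differences came from 225407_at, at 5.87 in IGR39 and 8.21 in IGR37, and from 225408_at, at 4.60 and 6.00. They amounted to 2.34 and 1.40. In the remaining 3 probe sets neither line reached log2 6. Probe set 228938_at was at 3.46 and 4.36, 236324_at at 4.03 and 4.04, and 216567_at at 4.02 and 3.70.

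Of the 9 MBP probe sets, 6 reached log2 6, and all 6 were brighter in IGR37 by 2-fold or more. Among all 13152 named probe sets at that level, 12.1% were higher by 2-fold or more and 9.72% lower. Nothing is read from this contrast, because the genes were selected on it. In IGR39 all 9 MBP probe sets lay below log2 6, and the highest was at 5.87. The differences of the 9 ranged from -0.32 to 6.14, with a mean of 2.21 ± 2.00 (SD over probe sets, n = 9, which is not a replicate error). Which MBP transcripts each probe set detects is not given in the sources used here, so the probe sets cannot be assigned to the upstream or downstream start.

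GPM6B was at the low end of the array in IGR39 and near its top in IGR37. Probe set 209167_at stood at 3.53 in IGR39 and 10.64 in IGR37, which is 7.11 higher, or 138-fold. These values lay at the 29.1st and the 98.6th percentile of their arrays. Probe set 209170_s_at gave the same difference of 7.11, from 3.15 to 10.26.

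The other GPM6B probe sets differed less but in the same direction. Levels of 3.50 in IGR39 and 7.64 in IGR37 were recorded by 209168_at, a difference of 4.14. For 209169_at they were 3.40 and 6.99, a difference of 3.59. All 4 probe sets were thus brighter in IGR37 by 2-fold or more, and their differences had a mean of 5.49 ± 1.88 (SD over probe sets, n = 4). The IGR39 levels lay between 3.15 and 3.53. RMA compresses differences between low levels, and no detection calls were used here, so the fold values of GPM6B and MBP depend on how background was modelled in IGR39.

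GPM6A, the close relative of GPM6B and a gene of neurons, did not share this pattern. Its probe set 236024_at was at 4.09 in IGR39 and 4.0 in IGR37, 209469_at was at 3.15 and 3.43, and 209470_s_at was at 3.23 and 3.16. None of the 3 reached log2 6, and the differences ran from -0.09 to 0.28. The probe SD of 0.40 came from probe sets at or above log2 6, so it is no yardstick for these. In both lines all 3 lay below the median of their array, and no fold is given.

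PMP2, the peripheral myelin fatty acid-binding gene, was dim in both lines. Probe set 206826_at read 2.89 in IGR39 and 3.37 in IGR37, and 235127_at at 2.90 and 3.22. In IGR39 these values lay at the 2.9th and 3.1st percentile of the array, and in IGR37 at the 22.6th and 15.8th. Both probe sets lay below log2 4 in each line, and no fold is given.

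**Figure D1:**
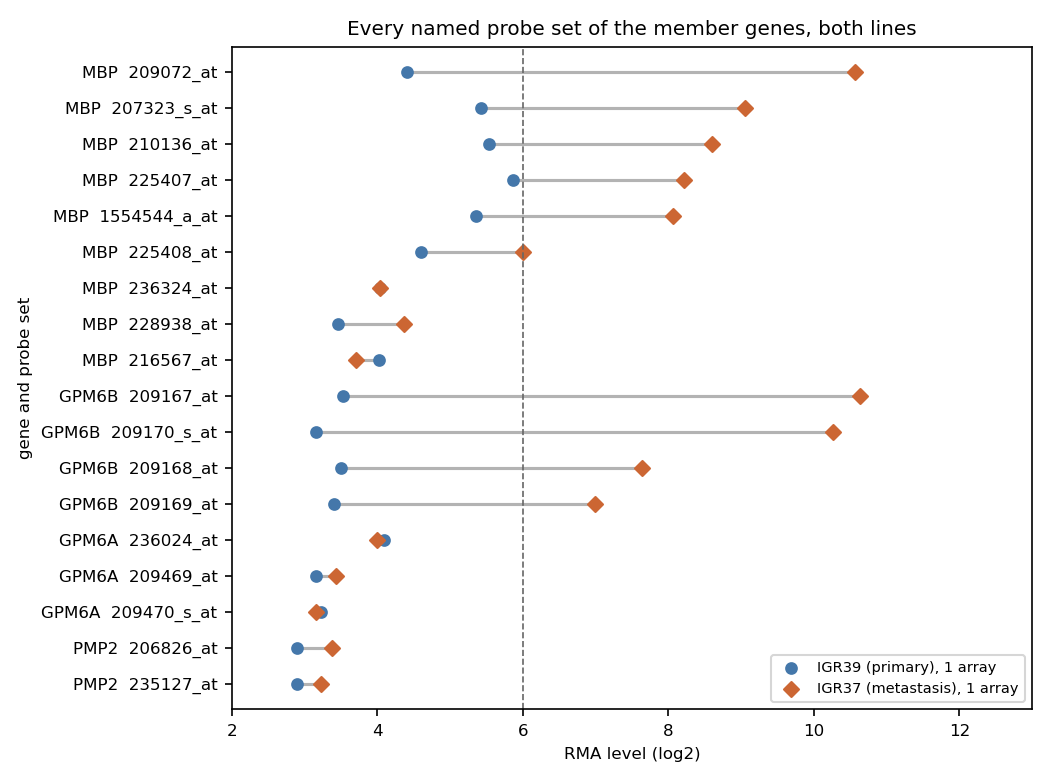
RMA level (log2, horizontal axis) of each of the 18 named probe sets of MBP, GPM6B, GPM6A and PMP2, 1 array per line, with circles for IGR39, diamonds for IGR37 and a dashed line at log2 6. The GPM6B pairs and 6 of the 9 MBP pairs reach from below the dashed line to log2 6 or above it, while every GPM6A and PMP2 point lies below it.

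The same lines were checked for the identity given on their labels. Of 7 melanocyte markers, 6 had a value. In IGR37 TYRP1, MLANA, PMEL, TYR and MITF stood between 11.36 and 13.05. In IGR39 MITF was at 7.57 and those 4 pigmentation genes were between 3.15 and 4.29, all below log2 6. GPR143, the sixth, was at 3.34 in IGR39 and 3.38 in IGR37. Neither line reached log2 6 for any of the 6 immune markers measured, whose highest value was 5.03. Among 10 neuron markers, TUBB3 was at 11.52 in IGR39 and 11.45 in IGR37, NEFL at 9.69 and 8.96, and SNAP25 at 5.39 and 7.73, and the other 7 lay below log2 6. Of 6 astrocyte markers 1 reached log2 6, SLC1A2 at 6.33 and 6.42, and GFAP was at 3.86 and 3.76. Fibroblast and endothelial markers reached it for 3 of 8, with FAP at 8.85 and 6.83, LUM at 3.41 and 6.26 and COL1A1 at 5.87 and 6.15, and keratinocyte markers for 1 of 5, KRT10. The part of SNAP25 and LUM, which were brighter in IGR37 like MBP and GPM6B, was not tested.

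For the gene lists that follow, each gene is represented by its brightest probe set, judged by the mean of both lines, and genes were counted where the brighter line reached log2 6. Of all 8501 such genes, 11.4% were higher in IGR37 by 2-fold or more and 9.5% were lower by as much, with a median difference of 0.07. Centring on housekeeping genes, which moved every difference by 0.16, turned this split from 973 higher and 808 lower genes into 765 higher and 1024 lower.

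Relatives of the members in their protein families were examined first. For the PLP family, that of GPM6A and GPM6B, 1 relative was listed, and it had no usable probe set and so no value. The PMP22 family was represented by EMP1, EMP2 and EMP3, the epithelial membrane proteins, and by LIM2, TMEM47 and PERP. EMP1 was bright in both lines, at 10.21 in IGR39 and 10.77 in IGR37. EMP3 was at 10.38 and 10.18.

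EMP2 was at 8.42 in IGR39 and 8.87 in IGR37. PERP, a p53 target found in desmosomes, was at 9.61 and 9.64. LIM2, a lens gene, was at 3.96 and 4.19, and TMEM47 at 4.03 and 3.16. Of 6 relatives, 4 reached log2 6 and all 4 lay within 2-fold, with a median difference of 0.24. For EMP1, the 3 other probe sets at that level differed by 0.60 to 2.57.

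Relatives of PMP2 were divided. FABP7, the brain fatty acid-binding protein of glial precursors, was at 3.63 in IGR39 and 7.94 in IGR37, or 4.31 higher, and its other probe set at log2 6 or above was 3.51 higher. FABP5 was bright in both lines, at 9.19 and 10.70, a difference of 1.51. CRABP2, which binds retinoic acid, was at 6.19 and 5.68.

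The other 5 relatives with a value, FABP1, FABP2, FABP3, FABP4 and FABP6, lay between 3.66 and 4.05 in both lines. Of the 8 measured, 3 reached log2 6, 2 of them at least 2-fold higher in IGR37 and 0 lower. FABP7 in IGR37 and FABP5 in both lines were thus bright, and PMP2, the peripheral myelin member, was not.

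**Figure D2:**
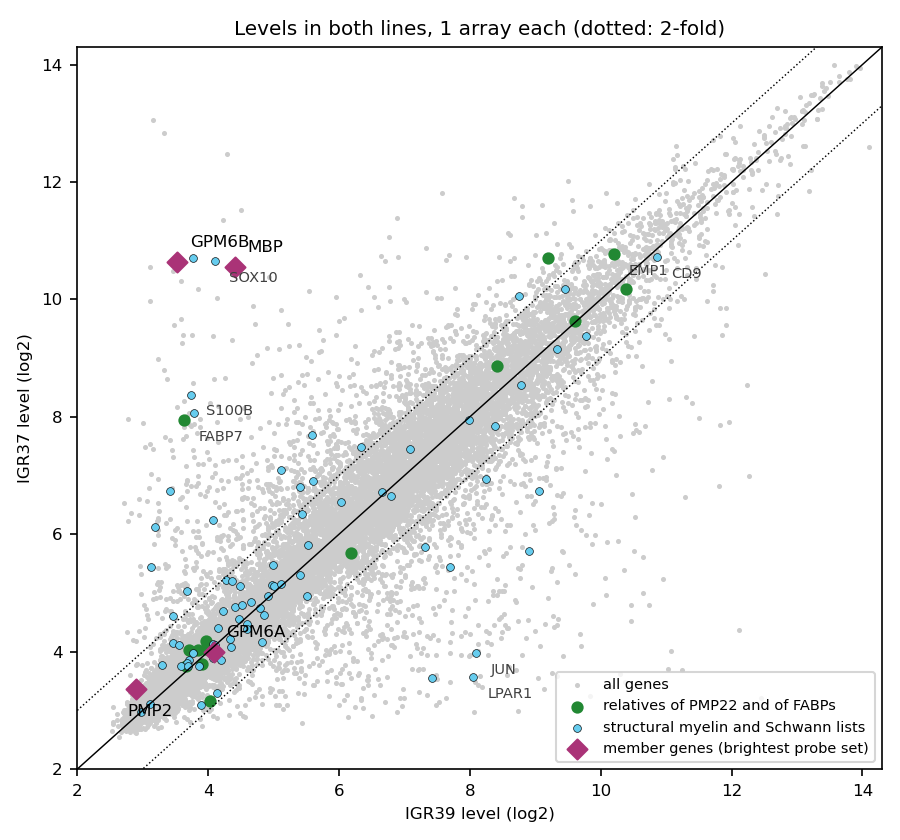
Level in IGR39 (horizontal axis, log2) against level in IGR37 (vertical axis, log2) for all 19775 genes in grey, 1 array per line, with the member genes as diamonds, relatives of PMP22 and of the fatty acid-binding proteins in green and the structural myelin and Schwann lists in blue; the solid line marks equal levels and dotted lines 2-fold. MBP (4.41, 10.56) and GPM6B (3.53, 10.64) lie at the upper left beside SOX10, while GPM6A and PMP2 lie at the lower left.

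Of 35 listed structural genes of myelin, 29 had a value and 21 of these stayed below log2 6 in both lines, as did 57.0% of all genes. MAG was one of these, at 4.19 in IGR39 and 3.86 in IGR37, and MOG another, at 4.11 and 4.12. They encode adhesion and surface proteins of the myelin sheath. MOBP, a central myelin protein, was at 3.68 and 3.81. MAL, a lipid raft protein, was at 3.56 and 4.12.

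PRX, which encodes the Schwann cell protein periaxin, was at 5.53 in IGR39 and 5.82 in IGR37. CLDN11, the tight junction protein of myelin, was at 4.86 and 4.62. These genes were chosen after their values were seen, as examples of dim ones.

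Of the 8 structural genes that reached log2 6, 3 were higher in IGR37 by 2-fold or more, 1 was lower and 4 lay within 2-fold, with a median difference of 0.55. GJB1, the gap junction protein of non-compact Schwann cell myelin, was at 5.59 in IGR39 and 7.69 in IGR37. SEPTIN4, a filament-forming GTPase, was at 4.08 and 6.25, and EPB41L3, a membrane skeleton protein, was at 5.12 and 7.09. NDRG1, which is mutated in an inherited demyelinating neuropathy, went the other way, at 7.31 and 5.79.

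CNP, the myelin phosphodiesterase, read 9.45 in IGR39 and 10.18 in IGR37, and the tetraspanin CD9 at 10.86 and 10.72. The junction protein JAM3 was at 7.08 and 7.45, and the deacetylase SIRT2 at 7.99 and 7.95. These 4 genes are also transcribed in many cells that make no myelin. With probe sets of the _x_at and _s_at kinds left out, 1 structural gene was higher and 0 were lower. NDRG1, whose only probe set is of the _s_at kind, then had no value.

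Among genes of myelin lipids 1 call was made. Of 15 with a value 6 reached log2 6, of which 1 was higher in IGR37 by 2-fold or more, 0 lower and 5 within that limit, with a median difference of 0.35. SCD, the stearoyl-CoA desaturase, read 7.56 in IGR39 and 10.03 in IGR37, and its 3 other probe sets at that level differed by 2.97 to 3.79. With _x_at and _s_at probe sets left out, 0 lipid genes were higher, because all 4 SCD probe sets were of these kinds. SCD then had no value, so this count says nothing about its difference. The enzymes that make the myelin galactolipids were dim in both lines, with UGT8 at 4.05 and 4.29, GAL3ST1 at 4.14 and 4.30, and FA2H at 3.56 and 3.78. GALC, which degrades galactosylceramide, was at 5.81 and 3.65. Without a minimum level 2 lipid genes were lower by 2-fold or more, GALC and SGMS1, the latter at 4.14 and 2.87.

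**Figure D3:**
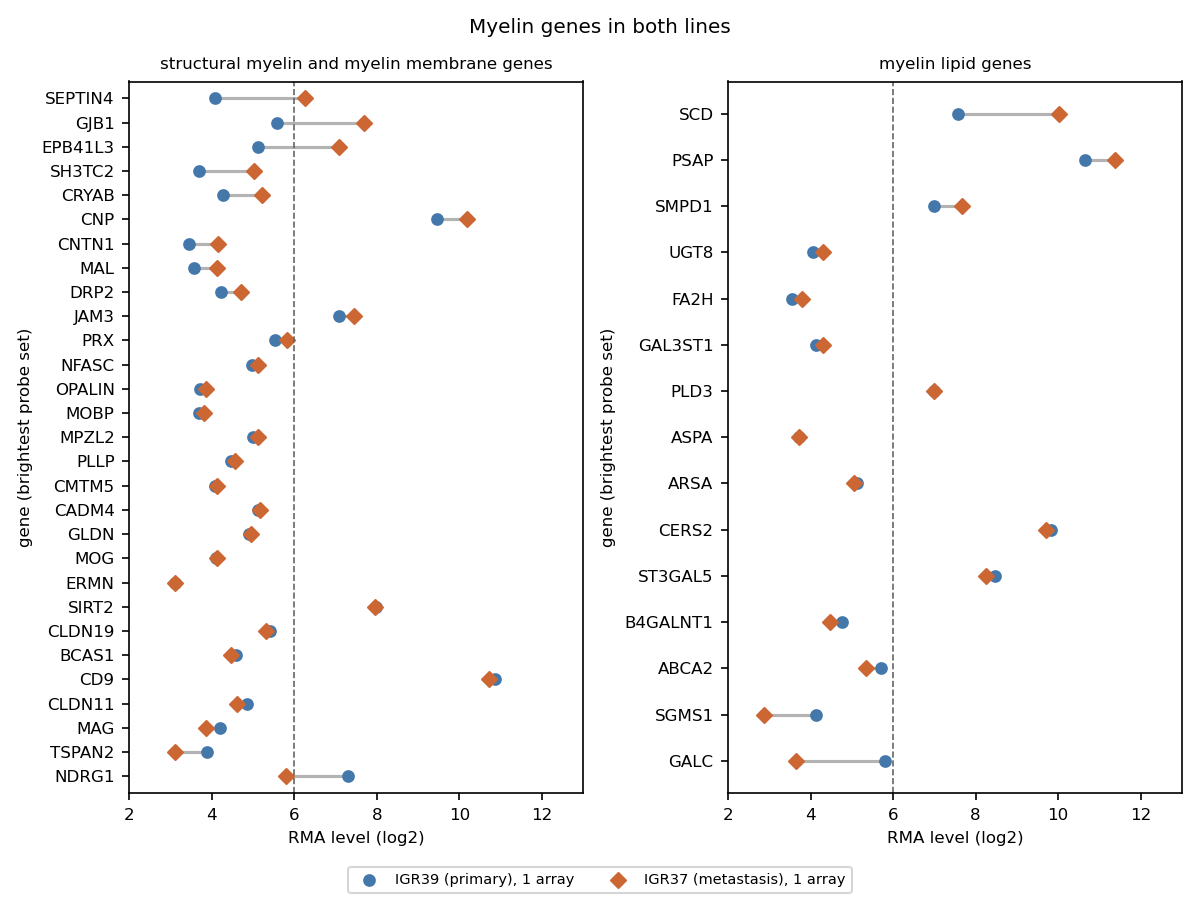
RMA level (log2, horizontal axis) of 29 structural myelin genes (left) and 15 myelin lipid genes (right), 1 array per line, with circles for IGR39, diamonds for IGR37 and a dashed line at log2 6. Most pairs lie left of the dashed line, and the long pairs that cross it are SEPTIN4, GJB1, EPB41L3 and NDRG1.

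Transcription factors of the Schwann lineage included the gene with the levels nearest to those of MBP. SOX10, required for glial and melanocyte fate, was at 4.10 in IGR39 and 10.65 in IGR37. Its other probe set at that level differed by 3.18. PAX3, another neural crest factor, was at 5.41 and 6.80.

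ZEB2, which acts in Schwann cell differentiation, read 3.42 in IGR39 and 6.73 in IGR37. TFAP2A was at 8.75 and 10.06. NAB2, a corepressor that works with EGR factors, was at 6.34 and 7.48, and NAB1 at 5.43 and 6.35. All of these were brighter in IGR37, NAB1 by less than 2-fold. The other factors at log2 6 or above and within 2-fold were YY1, EGR1 and HES1. They went the other way, with differences of -0.19, -0.40 and -0.54. For TFAP2A and NAB2 the other probe set at log2 6 or above differed by less than 2-fold, at 0.91 and 0.67. Of 5 ZEB2 and 4 PAX3 probe sets, only 1 of each gene reached log2 6.

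JUN, a driver of the repair state of Schwann cells and an antagonist of myelination, read 8.09 in IGR39 and 3.98 in IGR37, and its other probe set at log2 6 or above differed by -1.69. ID2, an inhibitor of basic helix-loop-helix factors, was at 8.25 and 6.94. The myelination factor POU3F1 stayed dim in both lines, at 4.48 and 5.12, as did POU3F2, at 3.46 and 4.60. Of 11 factors that reached log2 6, 5 were higher in IGR37 by 2-fold or more, 2 were lower and 4 lay within 2-fold. Averaging all probe sets of each gene left 1 higher and 2 lower, and turned the median from 0.92 to -0.10. A minimum of log2 7, which ZEB2, PAX3 and NAB1 did not reach, left 3 higher and gave a median of -0.29. Both lower calls, JUN and ID2, were lost with _x_at and _s_at probe sets left out, which left 0 lower.

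Surface and signalling genes of Schwann cells and their precursors divided into opposite groups. Of 14 that reached log2 6, 5 were brighter in IGR37 by 2-fold or more and 5 in IGR39. EDNRB, the endothelin receptor, was at 3.77 in IGR39 and 10.70 in IGR37. S100B, the calcium-binding protein used to stain Schwann cells, was at 3.74 and 8.38.

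ERBB3, the receptor through which neuregulin drives Schwann cell growth and myelination, was at 3.79 in IGR39 and 8.06 in IGR37. CDH19, a cadherin of Schwann cell precursors, was at 3.19 and 6.12, and MIA, a secreted melanoma protein, at 5.61 and 6.90. The ligand NRG1 was at 6.65 and 6.72, and the coreceptor ERBB2 at 6.80 and 6.66. Within the neuregulin system, then, only the level of ERBB3 differed by 2-fold or more among the 3 genes named.

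Of the 5 genes that were brighter in IGR39, LPAR1, the Schwann cell receptor for lysophosphatidic acid, differed most and read 8.05 in IGR39 and 3.57 in IGR37. The neurotrophin BDNF read 7.42 and 3.55. N-cadherin, encoded by CDH2, read 8.90 and 5.72.

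The laminin receptor subunit ITGA6 was at 9.06 in IGR39 and 6.73 in IGR37. NCAM1, an adhesion molecule of immature Schwann cells, read 7.69 and 5.44. All 5 of these genes had another probe set at log2 6 or above, and those differed by -2.63 to -1.57. L1CAM was at 8.78 and 8.55, and NES at 6.03 and 6.55.

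The remaining 15 genes of this list lay below log2 6 in both lines. NGFR, the low-affinity neurotrophin receptor of immature Schwann cells, read 3.69 in IGR39 and 3.76 in IGR37, and GAP43 at 3.77 and 3.97. Over the 14 genes the median difference was -0.03. The alternatives below applied the minimum anew, so their medians are not over the same 14 genes. With all probe sets of a gene averaged, the median was -1.95. At a minimum of log2 7 it was -2.25, with CDH19, MIA, NES, NRG1 and ERBB2 no longer counted and the differences of the others unchanged.

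**Figure D4:**
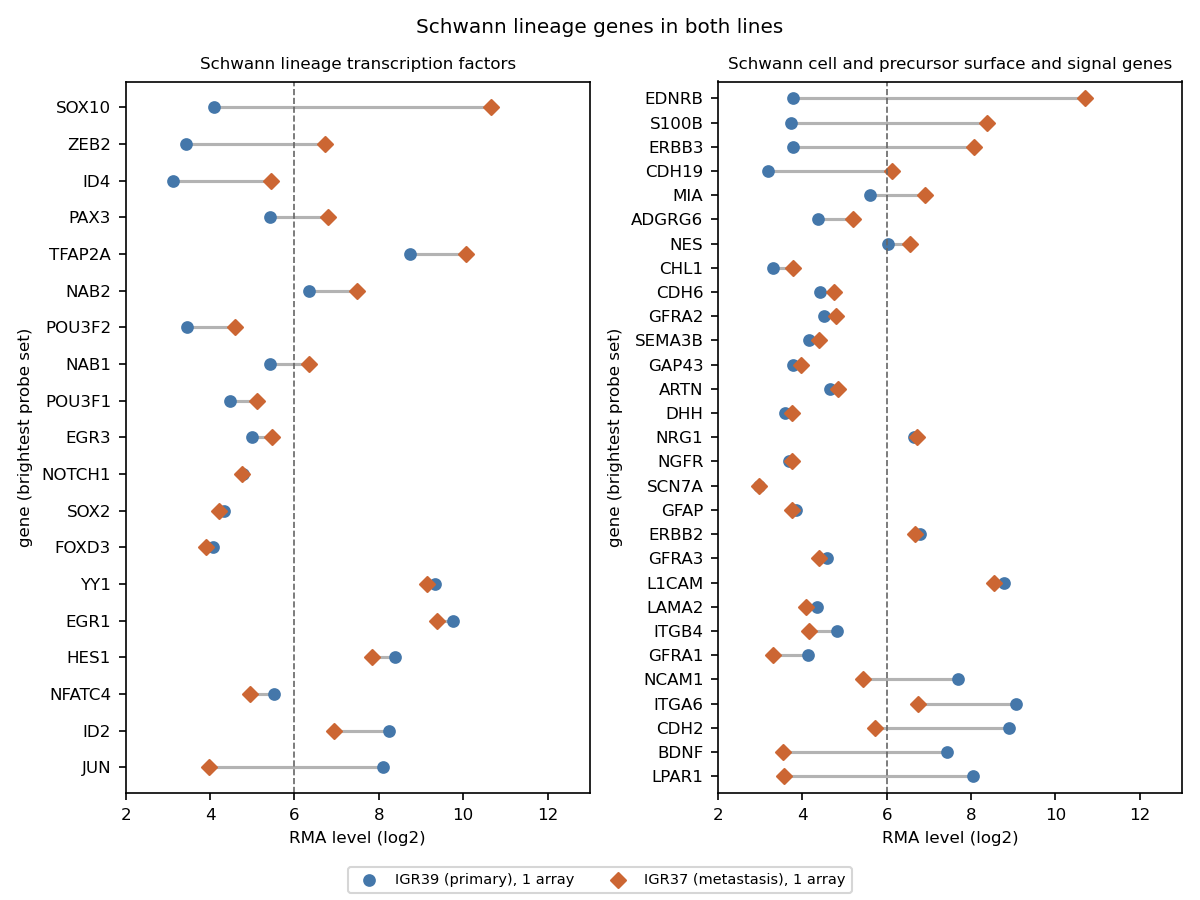
RMA level (log2, horizontal axis) of 19 Schwann lineage transcription factors (left) and 29 surface and signalling genes (right), 1 array per line, ordered by the difference, with circles for IGR39, diamonds for IGR37 and a dashed line at log2 6. SOX10, EDNRB, S100B and ERBB3 are much brighter in IGR37, and JUN, LPAR1, BDNF and CDH2 in IGR39.

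Of 13 measured factors of the oligodendrocyte, the myelinating cell of the brain, 1 reached log2 6. This was TCF7L2, at 6.57 in IGR39 and 5.58 in IGR37, just within 2-fold at -0.99. Its 3 other probe sets at log2 6 or above differed by -1.54 to -1.11, and it was at least 2-fold lower with _x_at and _s_at probe sets left out and with centring on housekeeping genes. OLIG1 was at 3.51 and 3.86, OLIG2 at 4.24 and 4.71, and MYRF, the regulator of central myelin genes, at 4.31 and 4.16.

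Genes whose products act on MBP RNA or protein were also listed. FYN, the kinase that starts local translation of MBP RNA in oligodendrocytes, read 5.44 in IGR39 and 8.71 in IGR37, and its other probe set at that level differed by 2.97. QKI, which binds and stabilises MBP RNA, was at 8.51 and 9.30, and HNRNPA2B1, which carries it, at 11.35 and 11.60. Of 9 measured, 6 reached log2 6, with 1 higher by 2-fold or more, 0 lower and 5 within that limit, where 79.0% of all genes also lay. The call of FYN was lost, leaving 0, with all probe sets averaged and with _x_at and _s_at probe sets left out.

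**Figure D5:**
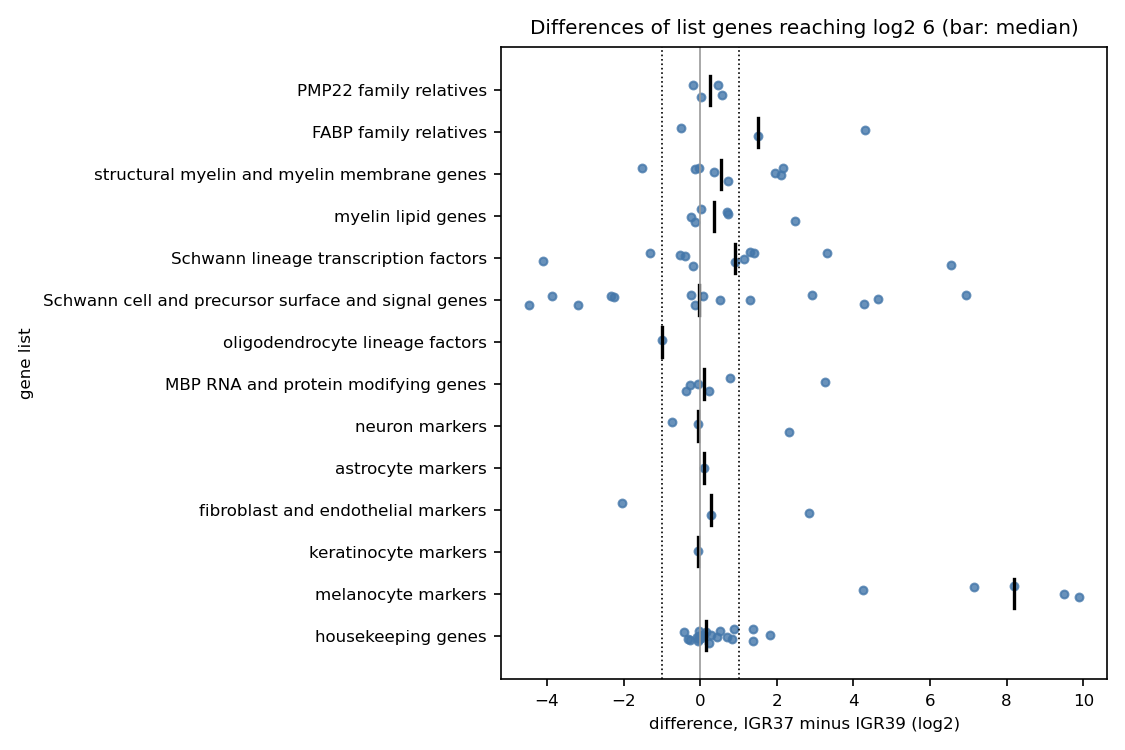
Difference between IGR37 and IGR39 (log2, horizontal axis) of each gene that reached log2 6 in the brighter line, by gene list, 1 array per line, with a bar at each list's median and dotted lines at 2-fold. The 14 Schwann surface and signalling genes spread from -4.47 to 6.93 around a median of -0.03, while the 5 melanocyte markers lie between 4.25 and 9.90.

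The genes whose levels were nearest to the members' over the 2 arrays were then listed, with the distance in log2 units over both levels. For MBP they were SOX10 at 0.33, GPR137B, a lysosomal membrane protein, at 0.54 and RAB38, a GTPase of melanosome transport, at 0.55. RAB38 was at 4.87 in IGR39 and 10.86 in IGR37. For GPM6B they were SLC45A2, a melanosomal transporter, at 0.17, EDNRB at 0.25 and LHFPL3-AS1, an antisense RNA, at 0.33. SLC45A2 was at 3.47 and 10.48. With 2 arrays, such likeness is a statement about 2 levels only.

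The measured genes next to MBP and GPM6B on their chromosomes lay within 2-fold or below log2 6. Beside MBP on chromosome 18, ZNF236 read 6.57 in IGR39 and 6.27 in IGR37, and ZNF516, GALR1 and SALL3 were below log2 6 in both lines. Beside GPM6B on chromosome X, OFD1 was at 7.11 and 6.85, TRAPPC2 at 5.62 and 6.11, GEMIN8 at 5.19 and 4.76 and GLRA2 at 3.80 and 4.10. Around PMP2 on chromosome 8, FABP5 and PAG1, an adaptor of SRC family kinases, were brighter in IGR37, PAG1 at 6.25 and 9.21, while PMP2 itself was dim. Of 20 neighbours, taken as the 2 protein-coding genes on each side of each member including PMP22, 17 had a value and 5 reached log2 6, of which 2 were at least 2-fold higher and 3 within 2-fold.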

How the data were processed

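Per the labels, RNA of each line was labelled with biotin and hybridised to 1 array. The deposited values are log2 levels, which the authors computed with RMA (affy) per the submitters' processing notes. Versions, and which arrays were normalised together, are not stated there.

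Names came from the platform annotation and were brought up to date by gene identifier through RefSeq (GRCh38.p14). Of 54675 probe sets, 41091 had 1 symbol (41043 matched RefSeq), 1801 several, 11721 none here and 62 were controls. Only those with 1 symbol were used. The brightest probe set stood for a gene. Lists counted genes whose brighter line reached log2 6, and 2-fold was the limit. The members and lists were chosen with earlier results of these data known.

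Named genes were all members, and all family relatives with a value. Per list, up to 6 genes with the largest and 4 with the most negative difference past 2-fold were also named. The 3 nearest genes in level and 2 neighbours a side completed them. Other genes, such as MAG, MOG, NGFR, UGT8, POU3F1 and marker genes, were named after their values were seen, mainly for being dim or within 2-fold. The alternatives were 8 other settings of probe choice, scaling and minimum, including a lowess span of 0.3. The number of arrays limits the precision.

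The counting was tested on simulated data for IGR37 against IGR39 with 8103 genes and noise of SD 0.25. Simulated differences of 1.5 were found in 93 of 99 genes and of 3.0 in 100 of 100, while 39 of 7904 genes made without one were also called. The noise was a chosen setting, without spread between cultures or differences that vary among a gene's probe sets. These counts therefore check the counting and not how reliable the calls from 1 array per line are. Python 3.11.15, numpy 2.4.6, pandas 2.3.3, statsmodels 0.14.6 and matplotlib 3.10.9 were used.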

Additional observations from a re-analysis of the deposited data

How the results depend on the processing

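With all probe sets of a gene averaged, the difference of MBP went from 6.14 to 2.21 and that of GPM6B from 7.11 to 5.49, because dimmer probe sets with smaller differences entered the mean. Under the 3 scalings and with _x_at and _s_at probe sets left out, MBP stayed between 5.98 and 6.17 and GPM6B between 6.95 and 7.13. The difference of GPM6A was 0.04 with the average and otherwise between -0.25 and -0.07, and PMP2 ranged from 0.33 to 0.51.

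With the average, the Schwann transcription factors had 1 higher gene and a median of -0.10, and the surface and signalling genes 2 higher and a median of -1.95. With _x_at and _s_at probe sets left out, structural myelin genes had 1 higher and 0 lower, and the transcription factors 0 lower. At a minimum of log2 7 the transcription factors had 3 higher and a median of -0.29, and the surface genes 3 higher and a median of -2.25. With no minimum the median of the structural genes was 0.12 and that of the factors 0.50. Other alternatives for these lists and the members stayed within the probe SD or within 1.5 times the count. Another minimum left each gene's difference as it was and changed only which genes were counted. With _x_at and _s_at probe sets left out, a gene was read from another probe set or had no value. Averaging changed the differences and also which genes reached the minimum, and the share of each was not tested. Over all genes, averaging probe sets left 588 higher and 503 lower.

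No paired analysis was possible because each line has 1 array. Leaving out an array was not possible either. Levels near the low end of the arrays limit what GPM6A, PMP2 and the IGR39 levels of MBP and GPM6B can show.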
